A study of Homo sapiens and Mus musculus with 99 samples.

Results

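The genes that build the junctions between epithelial cells were followed by name through the human part of a study of fungal pore-forming proteins. The set held 40 genes, given as a list of symbols: 19 of the tight junction, 10 of the adherens junction and 11 of the desmosome. All 40 were found among the 57820 gene IDs of the human count tables, of which 51996 matched a symbol. In the study, 2 human lung cancer epithelial lines, NCI-H1437 and NCI-H292, were exposed to an extract of the mould Alternaria alternata (ALT) or to the pore-forming proteins Aeg-S and Aeg-L, and RNA was sequenced at 4 h. There were 6 human experiments, 24 groups and 51 libraries of the 99 in the series, and each experiment had its own controls in phosphate-buffered saline (DPBS).

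A tight junction seals the gap between neighbouring cells: claudins and occludin (OCLN) cross the membrane, zonula occludens proteins tie them to actin, and polarity proteins such as PARD3, PARD6B, CRB3 and PATJ place the seal near the apical side. An adherens junction holds cells together through classical cadherins, whose outer domains fold and bind only with calcium outside the cell and whose tails carry catenins, and through nectins, which bind afadin (AFDN) and need no calcium. A desmosome uses its own cadherins, the desmogleins and desmocollins, linked by plakoglobin (JUP), plakophilins and desmoplakin (DSP) to keratin filaments.

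The experiments are named here by line and number. H1437-1 held DPBS, ALT and ALT+Tra with 3 libraries each; all other groups had 2 libraries. H1437-2 held DPBS, Aeg-S alone, Aeg-L alone, both proteins together (Aeg-S/L) and Aeg-S/L+Tra. H1437-3 and H292-2 held DPBS, Aeg-S/L, Aeg-S/L+EGTA and Aeg-S/L+BAPTA-AM. H1437-4 and H292-1 held DPBS, wild-type extract (WT ALT) and extracts labelled aegs KO and aegl KO, for the fungal genes of the named proteins. EGTA binds calcium outside cells, while BAPTA-AM enters cells and binds calcium inside. The labels do not expand "Tra", although the names of the deposited tables that hold it speak of a MEK inhibitor. The sources used here give no doses, no group received a chelator or Tra without extract or protein, and every group of a line shared the same serum-containing medium. What a chelator does on its own and what it does to the response to Aeg-S/L therefore cannot be told apart.

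Libraries held 32425310 to 53172930 counts in genes. Epithelial markers were high in all 35 NCI-H1437 and 16 NCI-H292 libraries, with EPCAM at 440.3 to 725 and 349 to 534 TPM (counts scaled for gene length and library size) and KRT7, KRT8, KRT18 and KRT19 all above 265 TPM. The leukocyte gene PTPRC and the fibroblast genes COL1A2, COL3A1 and DCN stayed at or below 0.130 TPM, whereas COL1A1 reached 74.2 TPM and CD14 75.4 TPM in NCI-H1437. In H1437-1, DPBS replicate 1 stood apart for many members, and in H1437-2, Aeg-S replicate 2 did; the counts they bear on most are given without them. The labels speak only of biological replicates, so p-values measure the spread between these libraries, which may be technical. In bulk RNA, fewer cells making a transcript and less of it per cell cannot be told apart.

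In unstimulated cells the 2 lines shared a core of abundant junction RNAs and differed in the cadherins and claudins they used. Levels between genes are compared here as TPM, which corrects for gene length, as the mean over experiments (4 for NCI-H1437, 2 for NCI-H292). JUP, the plakoglobin shared by desmosomes and adherens junctions, ranked first in both lines, at 296 ± 38.4 TPM (SD, n = 4 experiments) and 573 ± 132 TPM (SD, n = 2). In NCI-H1437 it was followed by CTNNA1 (alpha-catenin, 287 TPM), CLDN7 (262 TPM), CTNNB1 (beta-catenin, 222 TPM) and DSG2 (desmoglein 2, 212 TPM). In NCI-H292 the order was PKP3 (plakophilin 3, 535 TPM), CTNNB1 (519 TPM), DSP (377 TPM) and CTNND1 (p120-catenin, 359 TPM). The SDs of JUP, CTNNA1, CLDN7 and CTNNB1 in NCI-H1437 overlap (38.4, 28.7, 27.8 and 43.5 TPM). These genes were measured in the same libraries, so the overlap does not test their order. JUP was above CTNNA1 in all 4 experiments, most narrowly in H1437-1 (252.5 and 252.1 TPM). CLDN7 was above CTNNA1 in H1437-1 (261.7 TPM) and below it in H1437-2 (222.6 and 321.0 TPM).

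Between the lines at rest, edgeR's quasi-likelihood test on DPBS counts summed per experiment called 18 members higher and 11 lower in NCI-H292 of the 40, against 64.3% of all genes tested (32.2% higher and 32.1% lower). Line and experiment cannot be told apart in this comparison, and without experiment H1437-1 the count was 30 in place of 29. By group, 4 tight junction members were higher and 8 lower of 19 (median log2 difference -0.05), 8 adherens members were higher and 0 lower of 10 (median 1.20), and 6 desmosome members were higher and 3 lower of 11 (median 0.89), beside a median of 0.00 over all genes. E-cadherin itself (CDH1) stood at 168 and 156 TPM in NCI-H1437 and NCI-H292, a log2 difference of -0.14 ± 0.13 (SE, edgeR adjusted p = 0.370) with a 95% interval of -0.42 to 0.15. N-cadherin (CDH2) had 0 counts over all DPBS libraries of NCI-H1437 and 2520 in NCI-H292, at least 2009-fold higher when the NCI-H1437 level is set at the 3 counts over the group that a count of 0 allows. P-cadherin (CDH3) was higher in NCI-H292 by 1.98 ± 0.11 (SE, edgeR adjusted p = 1.20e-07) on the log2 scale.

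The desmosomal cadherins divided the lines. DSG3 and DSC3, the desmoglein and desmocollin typical of stratified epithelium, stood at 0.0412 and 43.2 TPM and at 0.365 and 56.5 TPM in NCI-H1437 and NCI-H292, log2 differences of 9.97 ± 0.22 (SE, edgeR adjusted p = 2.50e-10) and 7.24 ± 0.15 (SE, edgeR adjusted p = 2.33e-10). DSC2, the desmocollin of simple epithelium, went the other way at 47.6 and 19.8 TPM (log2 -1.29 ± 0.15, SE, edgeR adjusted p = 2.54e-05). DSG2 did not differ beyond the spread between experiments, at 212 and 241 TPM (log2 0.16 ± 0.15, SE, edgeR adjusted p = 0.367). Of the plaque proteins, DSP (1.92 ± 0.15), PKP2 (2.10 ± 0.12) and PKP3 (1.76 ± 0.13) were higher in NCI-H292 on the log2 scale, while PKP1 (-1.91 ± 0.16) and PPL, the periplakin of cornifying cells (-0.77 ± 0.16), were lower.

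Among tight junction members the widest gap was in CLDN3, a sealing claudin, at 108 and 5.51 TPM, a log2 difference of -4.36 ± 0.16 (SE, edgeR adjusted p = 4.36e-09). TJP3 (zonula occludens 3), CGN (cingulin) and PARD3 were also lower in NCI-H292, at -1.68 ± 0.12, -1.53 ± 0.16 and -1.34 ± 0.12 on the log2 scale. F11R (junctional adhesion molecule A) and CLDN12 were higher, by 1.33 ± 0.11 and 1.28 ± 0.12. OCLN (17.6 and 20.3 TPM; edgeR adjusted p = 0.419) and TJP1, zonula occludens 1 (52.2 and 51.7 TPM; edgeR adjusted p = 0.827), did not pass the test. The calls of CLDN4 (-0.36), CLDN7 (-0.43), PATJ (0.47) and NECTIN2 (0.38) were each lost on leaving out at least 1 experiment: CLDN4 without H1437-3 (0.0559), H1437-4 (0.0801), H292-1 (0.106) and H292-2 (0.136), CLDN7 without H1437-3 (0.0706), H1437-4 (0.0738), H292-1 (0.0577) and H292-2 (0.242), PATJ without H292-2 (0.0900) and NECTIN2 without H292-2 (0.0838), with the adjusted p in brackets. CLDN18, the lung and stomach claudin, was near absence in both lines (0.0546 and 0.134 TPM), and in no experiment did it reach the count filter.

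**Figure D1:**
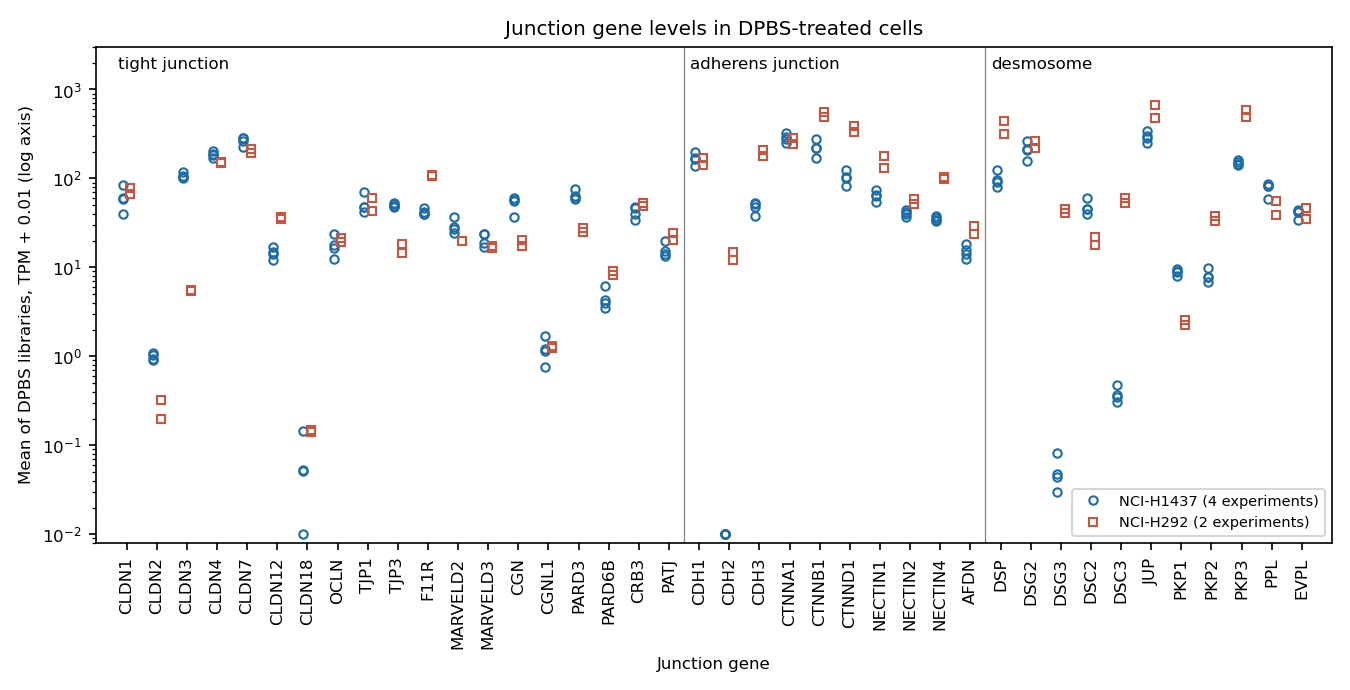
Level of each of the 40 junction genes in DPBS, as mean TPM per experiment on a log axis, with tight junction, adherens junction and desmosome genes in order; circles are the 4 NCI-H1437 experiments and squares the 2 NCI-H292 experiments. JUP is highest in both lines (296 and 573 TPM on average), and CDH2, DSG3, DSC3 and CLDN3 separate the lines most; levels of 0 are drawn at 0.01 TPM.

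Extract and Aeg-S/L changed many junction RNAs within 4 h, and they did so in both directions. The low-count filter kept 37 of the 40 members in each NCI-H1437 experiment (CDH2, CLDN18 and DSG3 fell out), 39 in H292-1 (not CLDN18) and 38 in H292-2 (not CLDN18 or CLDN2). With Aeg-S/L against DPBS, 18 members rose and 17 fell in H292-2, against 43.2% of all genes tested (22.1% higher and 21.1% lower), and 13 rose and 8 fell in H1437-3, against 31.2% of all genes tested (15.4% higher and 15.8% lower). With wild-type extract, 10 rose and 7 fell in H1437-4, against 32.8% of all genes tested (15.8% higher and 17.1% lower), and 9 rose and 6 fell in H292-1, against 22.9% of all genes tested (11.6% higher and 11.3% lower). Over all members the median log2 fold changes were 0.01, 0.07, 0.05 and 0.17 in that order, beside -0.01, 0.01, -0.01 and -0.01 over all genes tested. The count of 15 in H292-1 became 6 without WT ALT replicate 2, 7 without DPBS replicate 1 and 8 without WT ALT replicate 1. The collagen gene COL1A1, a fibroblast marker, rose with the stimuli in H1437-1, H1437-2, H1437-3 and H1437-4 by 1.33, 1.30, 0.87 and 0.44 on the log2 scale. The fibroblast list summed to 42.2 to 46.5 TPM with Aeg-S/L and 27.1 to 28.5 TPM in DPBS in H1437-3 and to 10.3 to 11.8 and 11.7 to 12.6 TPM in H292-2, and its part in the results was not tested.

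**Figure D2:**
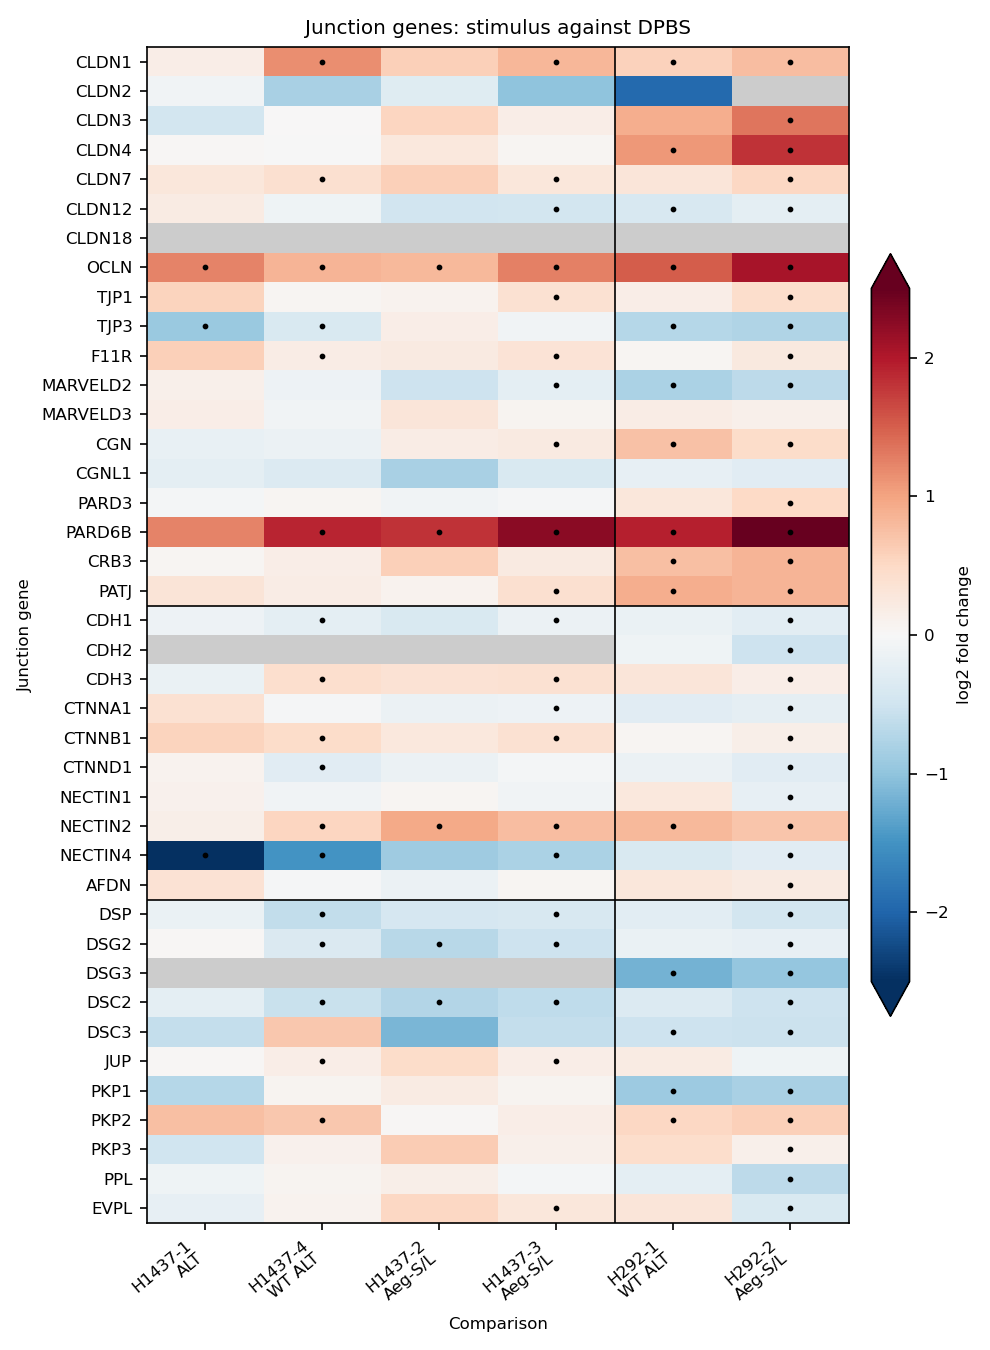
Log2 fold change against the same experiment's DPBS for each junction gene (rows, tight junction above adherens junction above desmosome) under extract or Aeg-S/L (columns, 4 NCI-H1437 experiments left of 2 NCI-H292 experiments); red is higher, blue lower, a dot marks an edgeR adjusted p under 0.05, grey was not tested, and the colours end at 2.5 in either direction. OCLN carries a dot in all 6 columns and PARD6B in 5, while TJP3, NECTIN4, DSG2 and DSC2 carry one in 4 columns each in blue.

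Of the tight junction members, 12 rose in H292-2 and 3 fell of 17 tested (median log2 fold change 0.50), and 8 rose in H1437-3 and 2 fell of 18 tested (median log2 fold change 0.19). Over all genes tested, 22.1% rose and 21.1% fell in H292-2, and 15.4% and 15.8% in H1437-3. OCLN, the occludin strand protein, was the only member higher in all 6 comparisons of extract or Aeg-S/L with DPBS. In H1437-3 it measured 30.7 and 30.9 CPM (counts scaled to library size with edgeR's TMM factors) in DPBS and 71.3 and 75.4 CPM with Aeg-S/L, a log2 fold change of 1.25 ± 0.07 (SE, edgeR adjusted p = 1.49e-09). In H292-2 it measured 34.8 and 37.3 CPM in DPBS and 146 and 154 CPM with Aeg-S/L, a log2 fold change of 2.05 ± 0.08 (SE, edgeR adjusted p = 3.72e-14). The treated libraries lay above the controls with no overlap in both lines. With wild-type extract the log2 fold change of OCLN was 0.84 ± 0.08 (SE, edgeR adjusted p = 9.64e-07) in H1437-4 and 1.52 ± 0.16 (SE, edgeR adjusted p = 0.000115) in H292-1.

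PARD6B, an adaptor of the apical polarity complex, showed the largest rise among the members in H1437-3 and H292-2. It measured 4.38 and 4.77 CPM in DPBS and 21.96 and 21.9 CPM with Aeg-S/L in H1437-3 (log2 2.26 ± 0.17, SE, edgeR adjusted p = 3.77e-08). In H292-2 the values were 10.9 and 10.5 CPM and 110.0 and 112 CPM (log2 3.37 ± 0.11, SE, edgeR adjusted p = 7.84e-15). The treated values were several times the controls in each line, with no overlap. With wild-type extract PARD6B rose by 1.90 ± 0.17 (SE, edgeR adjusted p = 4.28e-07) in H1437-4 and 1.95 ± 0.14 (SE, edgeR adjusted p = 7.89e-06) in H292-1 on the log2 scale. Its partner PARD3 rose in H292-2 (0.50 ± 0.08) and measured -0.02 ± 0.06 in H1437-3 without passing the test, and the apical proteins PATJ and CRB3 rose in H292-2 by 0.86 ± 0.07 and 0.85 ± 0.10.

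The claudins did not move as a block. CLDN1, a barrier-forming claudin, rose in 4 of the 6 comparisons, from 55.99 and 64.1 CPM in DPBS to 107 and 107 CPM with Aeg-S/L in H1437-3 (log2 0.83 ± 0.08, SE, edgeR adjusted p = 5.48e-07). The CLDN1 call in H292-1 did not hold without DPBS replicate 1, WT ALT replicate 1 or WT ALT replicate 2 (log2 0.52, 0.60 and 0.54). CLDN4, a claudin that tightens the paracellular path, rose only in the NCI-H292 experiments among the 6. In H292-2 it went from 179.6 and 182 CPM to 632 and 625 CPM (log2 1.80 ± 0.06, SE, edgeR adjusted p = 1.21e-14), whereas in H1437-3 it measured 248 and 243 CPM in DPBS and 247 and 260.3 CPM with Aeg-S/L (log2 0.05 ± 0.06, SE, edgeR adjusted p = 0.582). The NCI-H292 groups were far apart, while the NCI-H1437 groups lay within a few percent of each other. CLDN3 followed the same line: 1.61 and 1.84 CPM became 4.59 and 4.14 CPM in H292-2 (log2 1.33 ± 0.27, SE, edgeR adjusted p = 0.000422), and the log2 fold change in H1437-3 was 0.16 ± 0.08 (SE, edgeR adjusted p = 0.135). CLDN7 rose by 0.28 ± 0.06 and 0.52 ± 0.06 in H1437-3 and H292-2, and CLDN12 fell by 0.45 and 0.25; the CLDN12 call in H292-2 was lost without Aeg-S/L replicate 1 (0.339), DPBS replicate 1 (0.175) and DPBS replicate 2 (0.0623), with the adjusted p in brackets. The pore-forming claudin CLDN2 was called in none of the 6 comparisons and averaged 1.08 TPM at most in any DPBS group.

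Scaffold and membrane partners of the tight junction were mixed. TJP1, the zonula occludens 1 scaffold, rose by 0.38 ± 0.06 (SE, edgeR adjusted p = 0.000116) in H1437-3 and 0.44 ± 0.06 (SE, edgeR adjusted p = 4.62e-06) in H292-2. TJP3 fell by 0.75 in H292-2 (edgeR adjusted p = 0.00157) and by 0.38 in H1437-4 (edgeR adjusted p = 0.00115), and measured -0.10 ± 0.08 in H1437-3 without passing. The TJP3 call in H292-1 did not hold without DPBS replicate 1 or 2 (log2 -0.83 and -0.59) or WT ALT replicate 1 or 2 (-0.73 and -0.70). MARVELD2, the tricellulin of contacts where several cells meet, fell in H292-2 (-0.65 ± 0.12) and H1437-3 (-0.24 ± 0.08), the second call being lost without Aeg-S/L replicate 1 (0.173), Aeg-S/L replicate 2 (0.0860), DPBS replicate 1 (0.190) and DPBS replicate 2 (0.0528), with the adjusted p in brackets. CGN, which links the scaffold to actin and microtubules, rose in H292-2 (0.45 ± 0.09) and H292-1 (0.73 ± 0.12). F11R rose in H1437-3 (0.34 ± 0.08), while MARVELD3 and CGNL1 passed in none of the 6 comparisons.

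The adherens junction genes were led by the nectins NECTIN2 and NECTIN4. With Aeg-S/L, 4 rose in H292-2 and 6 fell of 10 tested (median log2 fold change -0.21), and 3 rose in H1437-3 and 3 fell of 9 tested (median log2 fold change -0.06). The shares over all genes tested were 22.1% higher and 21.1% lower in H292-2, and 15.4% and 15.8% in H1437-3. NECTIN2 rose in 5 of the 6 comparisons, from 43.3 and 40.4 CPM to 67.6 and 74.7 CPM in H1437-3 (log2 0.77 ± 0.08, SE, edgeR adjusted p = 1.45e-06) and from 57.5 and 53.5 CPM to 91.1 and 87.3 CPM in H292-2 (log2 0.68 ± 0.07, SE, edgeR adjusted p = 1.43e-07). Its call in H292-1 did not hold without DPBS replicate 1, WT ALT replicate 1 or WT ALT replicate 2 (log2 0.64, 0.83 and 0.81). NECTIN4, a nectin abundant in carcinoma cells, went down instead. In H1437-1, the experiment with 3 libraries a group, it measured 36.6, 34.7 and 31.5 CPM in DPBS and 5.27, 6.53 and 6.19 CPM with extract, a log2 fold change of -2.51 ± 0.28 (SE, edgeR adjusted p = 0.000592). In H1437-4 it measured 37.96 and 35.6 CPM in DPBS and 14.3 and 11.8 CPM with wild-type extract (log2 -1.49 ± 0.11, SE, edgeR adjusted p = 2.59e-08). No treated library reached a control in either experiment. With Aeg-S/L its log2 fold change was -0.79 ± 0.10 (SE, edgeR adjusted p = 1.30e-05) in H1437-3 and -0.28 ± 0.07 (SE, edgeR adjusted p = 0.00331) in H292-2.

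E-cadherin RNA was a little lower in all 6 comparisons of extract or Aeg-S/L with DPBS. Its log2 fold changes ran from -0.38 to -0.13, and 3 of them were called. CDH1 measured 263 and 264 CPM in DPBS and 225 and 215 CPM with Aeg-S/L in H292-2, a log2 fold change of -0.26 ± 0.06 (SE, edgeR adjusted p = 0.00135). In H1437-4 it fell from 297 and 283 CPM to 243 and 246 CPM with wild-type extract (log2 -0.25 ± 0.05, SE, edgeR adjusted p = 0.00158). In H1437-3 the change of -0.15 ± 0.05 (SE, edgeR adjusted p = 0.0461) was lost without Aeg-S/L replicate 1 (0.324), DPBS replicate 1 (0.0767) and DPBS replicate 2 (0.173), with the adjusted p in brackets. The groups did not overlap in H292-2 or H1437-4, yet the CDH1 changes in these 3 experiments were small. Of the catenins, CTNNB1 rose by 0.38 ± 0.05 in H1437-3 and 0.45 ± 0.06 in H1437-4, and CTNND1 fell by 0.28 in H1437-4 and 0.29 in H292-2. CDH3 rose by 0.38 ± 0.08 in H1437-3 and 0.42 ± 0.07 in H1437-4. In H292-2, CTNNA1 fell (-0.23 ± 0.05), and 5 further calls were each lost on leaving out 1 library, with the adjusted p in brackets. They were CTNNB1 (0.14 ± 0.05, lost without Aeg-S/L replicate 2 (0.249) and DPBS replicate 2 (0.105)), CDH2 (-0.52 ± 0.13, lost without Aeg-S/L replicate 1 (0.0809)), CDH3 (0.16 ± 0.05, lost without Aeg-S/L replicate 1 (0.163), Aeg-S/L replicate 2 (0.103) and DPBS replicate 2 (0.171)), NECTIN1 (-0.20 ± 0.06, lost without Aeg-S/L replicate 1 (0.0839) and DPBS replicate 1 (0.167)) and AFDN (0.23 ± 0.06, lost without Aeg-S/L replicate 2 (0.0661) and DPBS replicate 2 (0.101)).

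With Aeg-S/L, more desmosome members fell than rose in H292-2, while H1437-3 had no clear lean. In H292-2, 2 rose and 8 fell of 11 tested (median log2 fold change -0.45), and in H1437-3, 2 rose and 3 fell of 10 tested (median log2 fold change 0.01). Of all genes tested, 22.1% rose and 21.1% fell in H292-2, and 15.4% and 15.8% in H1437-3. DSP, the plaque protein that binds keratin, measured 1066 and 1132 CPM in DPBS and 795 and 813 CPM with Aeg-S/L in H292-2 (log2 -0.45 ± 0.05, SE, edgeR adjusted p = 4.90e-07). In H1437-4 it measured 275 and 261 CPM in DPBS and 192 and 158 CPM with wild-type extract (log2 -0.61 ± 0.07, SE, edgeR adjusted p = 8.35e-06). In H1437-3 its DPBS libraries were uneven, at 208 and 304 CPM against 193 and 196 CPM with Aeg-S/L, and the call (log2 -0.40 ± 0.12, SE, edgeR adjusted p = 0.0198) was lost without Aeg-S/L replicate 1 (0.0933), Aeg-S/L replicate 2 (0.0758) and DPBS replicate 2 (0.493) and by DESeq2 (adjusted p = 0.161), with the other adjusted p in brackets. The desmocollin DSC2 fell in 4 comparisons, by 0.63 in H1437-3 (edgeR adjusted p = 7.50e-06) and by 0.51 in H292-2 (edgeR adjusted p = 0.00205). DSG2 fell by 0.52 in H1437-3 (edgeR adjusted p = 5.15e-06) and by 0.36 in H1437-4 (edgeR adjusted p = 0.000194).

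In NCI-H292, which alone expressed DSG3, its level went from 66.9 and 58.2 CPM to 32.99 and 30.96 CPM with Aeg-S/L (log2 -0.97 ± 0.09, SE, edgeR adjusted p = 2.26e-08) and from 63.7 and 58.8 CPM to 26.2 and 28.1 CPM with wild-type extract (log2 -1.17 ± 0.12, SE, edgeR adjusted p = 8.54e-05). The controls were above the treated libraries in both experiments. DSC3 fell in H292-2 (-0.53 ± 0.08), as did the plakin PPL (-0.65 ± 0.06). PKP2 was the desmosome member that rose most, by 0.59 ± 0.06 (SE, edgeR adjusted p = 4.29e-07) in H292-2 and 0.68 ± 0.13 (SE, edgeR adjusted p = 0.000602) in H1437-4. EVPL, the envoplakin partner of PPL, rose in H1437-3 (0.28 ± 0.07; lost without Aeg-S/L replicate 2 (0.0796) and DPBS replicate 2 (0.0745), adjusted p in brackets) and fell in H292-2 (-0.37 ± 0.07). JUP measured 0.18 ± 0.06 in H1437-3, a call lost without Aeg-S/L replicate 2 (0.247) and DPBS replicate 2 (0.156), and -0.11 ± 0.05 in H292-2, which did not pass. PKP1 and PKP3, plakophilins of the plaque, measured -0.81 ± 0.26 and 0.13 ± 0.05 in H292-2, the first call being lost without Aeg-S/L replicate 1 (0.110) and DPBS replicate 2 (0.128) and the second without Aeg-S/L replicate 1 (0.144), Aeg-S/L replicate 2 (0.213), DPBS replicate 1 (0.0974) and DPBS replicate 2 (0.139).

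Short promoter stretches are shown for a few members that the stimuli moved, picked by hand. Matches at CLDN7, NECTIN2, CRB3, TJP1, TJP3, DSG2, DSC2 and PATJ, among others, and further ones at OCLN and DSP are not shown. Levels of SNAI1 are given further on, and a link between them and these letters was not tested. RefSeq promoter windows (assembly GRCh38.p14, 300 bases from 250 before to 50 after a start) existed for 28 of the 40 members, as 42 windows; CDH1 and PARD6B were among those without one. Each window was searched on both strands for TGANTCA, a pattern wider than the AP-1 element TGACTCA that it includes. The other patterns were TGACGTCA, the cAMP response element, and CACCTG or its reverse complement CAGGTG, the E-box that SNAI1 and its relatives bind. TGANTCA stood in 7.72% of all 34943 windows and 7.14% of the members', TGACGTCA in 1.84% and 7.14%, and CACCTG in 20.6% and 35.7%; no member is called particular from these shares. The 30 bases around a match are given 5′ to 3′ on the gene's strand, with the match in capitals.
CLDN4, chr7:73830746-73830775, plus strand: ctgggctgTGATTCAgtgtctgtctcccgg
CLDN4, chr7:73830824-73830853, plus strand: agactggatagTGACTCAgggacccggggc
OCLN, chr5:69492502-69492531, plus strand: ccatccgagtttCAGGTGaattggtcaccg
NECTIN4, chr1:161089579-161089608, minus strand: cccccagagacgCACCTGttctgacctgct
DSP, chr6:7541481-7541510, plus strand: gggcggcgggcgCAGGTGgggaggggcggc
The first 2 are TGANTCA matches before CLDN4, which rose in NCI-H292 alone, and only the second of them reads as the AP-1 element TGACTCA. The others are E-box letters before a gene that rose (OCLN) and before genes that fell (NECTIN4 and DSP). A match describes letters only and is neither a binding site nor a cause.

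The first NCI-H1437 experiments gave few calls, and they were fragile. In H1437-1, 1 member rose (OCLN, 1.24 ± 0.27) and 2 fell (NECTIN4 and TJP3, -0.93 ± 0.22) with extract, against 4.71% of all genes tested (3.59% higher and 1.13% lower), with a median log2 fold change of 0.04 over the members and -0.03 over all genes. DSP shows the spread: its DPBS libraries measured 88.03, 239 and 319 CPM and its extract libraries 203, 200.2 and 174 CPM, so the groups overlapped. Without the low DPBS replicate 1, 4 members were called. The OCLN call was lost without ALT replicate 1 (0.0631), ALT replicate 2 (0.110), ALT replicate 3 (0.108) and DPBS replicate 2 (0.0605) and the TJP3 call without ALT replicate 1 (0.134), ALT replicate 2 (0.147), ALT replicate 3 (0.161) and DPBS replicate 3 (0.0600), with the adjusted p in brackets, and the count fell to 1 without any ALT library. In H1437-2, Aeg-S/L raised OCLN (0.80 ± 0.19), PARD6B (1.80 ± 0.36) and NECTIN2 (0.95 ± 0.21) and lowered DSG2 (-0.69 ± 0.18) and DSC2 (-0.72 ± 0.19), against 6.72% of all genes tested (3.63% higher and 3.1% lower); the member and all-gene medians were 0.15 and 0.01. No member was called there once any 1 of the 4 Aeg-S/L and DPBS libraries was left out.

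Single proteins and the knockout extracts moved few junction genes. Against DPBS in H1437-2, edgeR called 0 of 37 members with Aeg-S (0% of all genes) and 0 with Aeg-L (0%); 6 and 1 members had an unadjusted p under 0.05, and DESeq2 called 0 and 0. Without Aeg-S replicate 1, which leaves the library that stood apart to speak for Aeg-S, 7 members were called, and without Aeg-S replicate 2, 0. PARD6B shows the 2 libraries: 8.02 and 21.4 CPM with Aeg-S against 6.48 and 8.58 CPM in DPBS. In H292-1 no member was called with the aegs KO extract (0% of all genes; 1 member at an unadjusted p under 0.05 and 0 by DESeq2) or the aegl KO extract (0.12%; 10 members and 0). In H1437-4 each knockout extract gave 1 call, against 1.08% of all genes tested (0.138% higher and 0.945% lower) for aegs and 0.766% of all genes tested (0.168% higher and 0.598% lower) for aegl. It was DSP both times, which fell by 0.57 (edgeR adjusted p = 0.00164) and 0.50 (edgeR adjusted p = 0.00485); the calls were lost without aegs KO ALT replicate 2 (0.0576) and without aegl KO ALT replicate 1 (0.176) and aegl KO ALT replicate 2 (0.0567), with the adjusted p in brackets.

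Set against wild-type extract, the knockout extracts gave many differences. In both lines these comparisons share their wild-type libraries with that of wild-type extract against DPBS, so opposite directions in them are not independent. In H1437-4, 7 members were higher and 12 lower with aegs KO than with wild-type extract, against 29.9% of all genes tested (15.7% higher and 14.2% lower), and 8 and 11 with aegl KO, against 30.6% of all genes tested (16.2% higher and 14.5% lower). The medians were -0.12 and -0.06 over the members and -0.01 and -0.02 over all genes. PARD6B measured 18.99 and 19.99 CPM with wild-type, 5.14 and 7.60 CPM with aegs KO and 5.59 and 4.96 CPM with aegl KO extract, log2 differences from wild type of -1.61 ± 0.17 and -1.88 ± 0.17 (edgeR adjusted p = 2.87e-06 and 6.22e-07). NECTIN4 measured 14.3 and 11.8, 31.5 and 33.01 and 29.99 and 34.4 CPM in the same order (log2 1.30 ± 0.11 and 1.30 ± 0.11; edgeR adjusted p = 1.77e-07 and 1.95e-07). The log2 differences of CLDN1 and OCLN were -1.13 ± 0.07 and -0.93 ± 0.08 with aegs KO and -1.05 ± 0.07 and -0.77 ± 0.08 with aegl KO extract. For these 4 genes the wild-type libraries did not overlap with either knockout.

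H292-1 gave the same comparison in the second line. With aegs KO extract 6 members were higher and 11 lower than with wild type, against 26.6% of all genes tested (13.2% higher and 13.4% lower), and with aegl KO extract 5 and 9, against 19% of all genes tested (9.85% higher and 9.13% lower). The medians were -0.04 and 0.02 over the members and 0.00 and -0.01 over all genes. CLDN4 measured 407 and 391 CPM with wild-type, 159.9 and 189 CPM with aegs KO and 226 and 171 CPM with aegl KO extract (log2 -1.19 ± 0.15 and -1.01 ± 0.15; edgeR adjusted p = 0.000419 and 0.00135). DSG3 measured 26.2 and 28.1, 61.6 and 60.96 and 49.02 and 50.7 CPM in that order (log2 1.17 ± 0.12 and 0.88 ± 0.12; edgeR adjusted p = 7.52e-05 and 0.000580). PARD6B and OCLN were lower, at log2 differences of -2.01 ± 0.14 and -1.48 ± 0.16 with aegs KO extract. CLDN4 and PARD6B were high in both wild-type libraries alone, and DSG3 low in them alone. The counts were smaller without 1 library: 10 and 8 (aegs and aegl) without WT ALT replicate 1, 9 and 7 without WT ALT replicate 2, and 9 for aegl without its replicate 1.

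**Figure D3:**
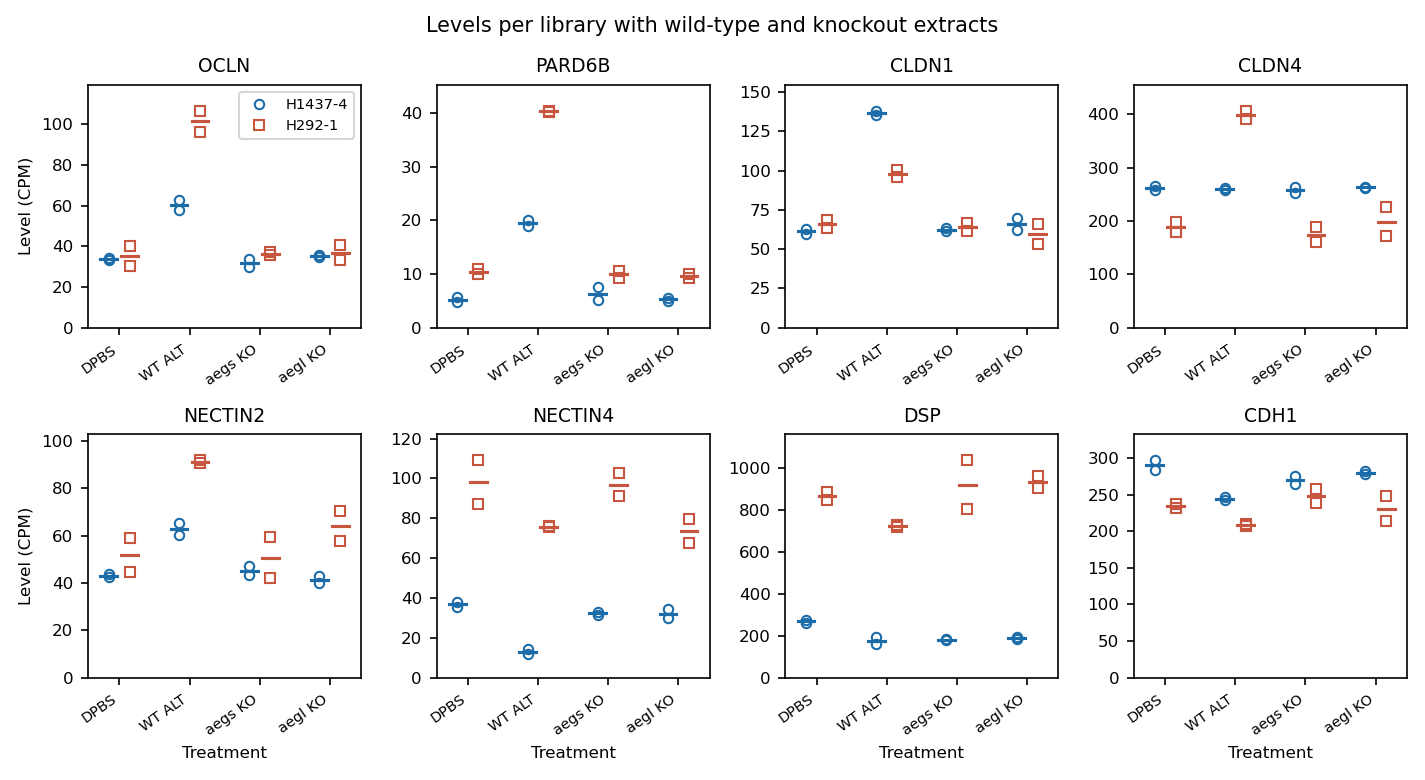
CPM per library on linear axes from 0 of 8 junction genes in H1437-4 (circles) and H292-1 (squares) under DPBS, wild-type extract and the aegs KO and aegl KO extracts; horizontal lines are group means of 2 libraries. OCLN, PARD6B and NECTIN2 are high with wild-type extract alone in both lines, CLDN4 in H292-1 alone, and NECTIN4 is low with wild-type extract in H1437-4 (14.3 and 11.8 CPM, against 37.96 and 35.6 CPM in DPBS).

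Addition of Tra was measured in H1437-1 and H1437-2. Comparisons with extract or Aeg-S/L alone share those libraries with the comparisons against DPBS, so opposite directions in them are not independent. Against extract alone, 2 members were higher and 0 lower with ALT+Tra, against 5.08% of all genes tested (1.33% higher and 3.75% lower). They were NECTIN4, at 20.8, 17.8 and 9.62 CPM with ALT+Tra and 5.27, 6.53 and 6.19 CPM with extract (log2 1.42 ± 0.27, SE, edgeR adjusted p = 0.0121), and TJP3 (log2 1.004 ± 0.22, SE, edgeR adjusted p = 0.0239). The NECTIN4 libraries did not overlap. The NECTIN4 call was lost without ALT replicate 1 (0.0701), ALT replicate 2 (0.0567), ALT replicate 3 (0.0658) and ALT+Tra replicate 2 (0.0583) and the TJP3 call without ALT replicate 1 (0.108), ALT replicate 2 (0.116), ALT replicate 3 (0.134), ALT+Tra replicate 2 (0.0604) and ALT+Tra replicate 3 (0.0594), with the adjusted p in brackets. Against DPBS, 0 of 37 members were called with ALT+Tra, as without DPBS replicate 1 (0.283% of all genes tested (0.123% higher and 0.16% lower); 9 members at an unadjusted p under 0.05 and 2 by DESeq2). In H1437-2 Aeg-S/L+Tra gave 0 calls against DPBS (0.495%, 0.478% higher and 0.0177% lower; 6 unadjusted and 0 by DESeq2) and 0 against Aeg-S/L (1.27% of all genes tested (0.124% higher and 1.15% lower); 1 unadjusted and 0 by DESeq2). PARD6B there measured -0.999 ± 0.35 on the log2 scale (95% interval -1.76 to -0.24).

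EGTA and BAPTA-AM bind calcium on opposite sides of the membrane, and cadherin adhesion needs calcium outside, so both were compared with Aeg-S/L alone. These comparisons share their Aeg-S/L libraries with that of Aeg-S/L against DPBS. Opposite directions in them are therefore not independent. With EGTA, 18 members were higher and 10 lower than with Aeg-S/L in H292-2, against 44.9% of all genes tested (23.2% higher and 21.7% lower), and 8 and 11 in H1437-3, against 30.6% of all genes tested (15.8% higher and 14.8% lower). The members' median log2 differences were 0.18 and 0.01, and those of all genes 0.01 and -0.02. Tight junction members leaned down, with 3 higher and 8 lower of 17 in H292-2 (median -0.13) and 2 and 9 of 18 in H1437-3 (median -0.19). In H1437-3, both higher calls (CLDN12 and PARD3) did not hold on leaving out 1 library. The same was true of the lower calls of CLDN1, F11R, MARVELD3 and CGN. Desmosome members leaned up, with 9 higher and 1 lower of 11 in H292-2 (median 0.60) and 3 and 0 of 10 in H1437-3 (median 0.19). Of the adherens members, 6 were higher and 1 lower of 10 in H292-2, and 3 and 2 of 9 in H1437-3. The H1437-3 count of 19 became 11 without Aeg-S/L replicate 1, 12 without EGTA replicate 1 and 12 without EGTA replicate 2.

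Occludin lay between control and Aeg-S/L once EGTA was present. In H292-2 OCLN measured 68.9 and 75.7 CPM with Aeg-S/L+EGTA, against 146 and 154 CPM with Aeg-S/L and 34.8 and 37.3 CPM in DPBS (log2 -1.05 ± 0.07, SE, edgeR adjusted p = 7.87e-10 against Aeg-S/L). In H1437-3 it measured 50.2 and 52.2 CPM with EGTA (log2 -0.52 ± 0.07, SE, edgeR adjusted p = 4.19e-05 against Aeg-S/L). The EGTA libraries were above DPBS and below Aeg-S/L in both lines, with no overlap, and OCLN with EGTA stayed above DPBS by 1.003 ± 0.08 (SE, edgeR adjusted p = 4.78e-09) in H292-2 and 0.73 ± 0.07 (SE, edgeR adjusted p = 4.91e-06) in H1437-3. PARD6B measured 14.4 and 16.9 CPM with EGTA in H292-2 (log2 -2.83 ± 0.11, SE, edgeR adjusted p = 1.19e-13) and 6.19 and 7.51 CPM in H1437-3 (log2 -1.67 ± 0.16, SE, edgeR adjusted p = 1.30e-06). CLDN4 in H292-2 measured 165 and 189 CPM with EGTA, beside 179.6 and 182 CPM in DPBS (log2 -1.83 ± 0.06, SE, edgeR adjusted p = 1.44e-14 against Aeg-S/L and -0.03 ± 0.06 (SE, edgeR adjusted p = 0.744) against DPBS). CLDN3 (-1.34 ± 0.27) and CRB3 (-0.86 ± 0.10) were also lower in H292-2.

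CDH1 was higher with EGTA than with Aeg-S/L alone in both lines. CDH1 measured 264 and 295 CPM with EGTA and 225 and 215 CPM without in H292-2 (log2 0.35 ± 0.06, SE, edgeR adjusted p = 7.95e-05), and 277 and 286 CPM and 243 and 261 CPM in H1437-3 (log2 0.16 ± 0.05, SE, edgeR adjusted p = 0.0357). The second call was lost without Aeg-S/L replicate 1 (0.280), Aeg-S/L+EGTA replicate 1 (0.0795) and Aeg-S/L+EGTA replicate 2 (0.195), with the adjusted p in brackets. Against DPBS, CDH1 with EGTA did not pass in H292-2 (0.09 ± 0.06 (SE, edgeR adjusted p = 0.284)) or H1437-3 (0.01 ± 0.05 (SE, edgeR adjusted p = 0.963)), with 95% intervals of -0.04 to 0.21 and -0.11 to 0.13. N-cadherin (CDH2), present in NCI-H292 alone, was higher by 0.67 ± 0.13 (SE, edgeR adjusted p = 0.000278) with EGTA than with Aeg-S/L. CDH3 did not pass in either line, at -0.06 ± 0.05 and -0.18 ± 0.08.

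In H292-2 the 4 desmosomal cadherins DSG2, DSG3, DSC2 and DSC3 were higher with EGTA too. DSC2 was higher with EGTA by 0.84 ± 0.12 (SE, edgeR adjusted p = 1.32e-05) in H292-2 and 0.66 ± 0.07 (SE, edgeR adjusted p = 5.59e-06) in H1437-3, and DSG2 by 0.29 ± 0.07 (SE, edgeR adjusted p = 0.00115) and 0.52 ± 0.06 (SE, edgeR adjusted p = 6.63e-06). In H292-2, DSG3 measured 55.4 and 56.4 CPM with EGTA and 32.99 and 30.96 CPM with Aeg-S/L (log2 0.81 ± 0.09, SE, edgeR adjusted p = 3.15e-07), and DSC3 was higher by 0.60 ± 0.08 (SE, edgeR adjusted p = 9.88e-06). DSP measured 1537 and 1468 CPM with EGTA in H292-2, 795 and 813 CPM with Aeg-S/L and 1066 and 1132 CPM in DPBS. It was thus highest with EGTA, 0.90 ± 0.05 (SE, edgeR adjusted p = 3.29e-11) above Aeg-S/L and 0.45 ± 0.05 (SE, edgeR adjusted p = 7.98e-07) above DPBS on the log2 scale. In H1437-3 the same gene measured 337 and 374 CPM with EGTA, 0.87 ± 0.12 (SE, edgeR adjusted p = 5.03e-05) above Aeg-S/L. NECTIN4, which needs no calcium to bind, was also higher, by 0.88 ± 0.07 (SE, edgeR adjusted p = 6.14e-09) and 1.04 ± 0.10 (SE, edgeR adjusted p = 9.41e-07) in H292-2 and H1437-3.

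**Figure D4:**
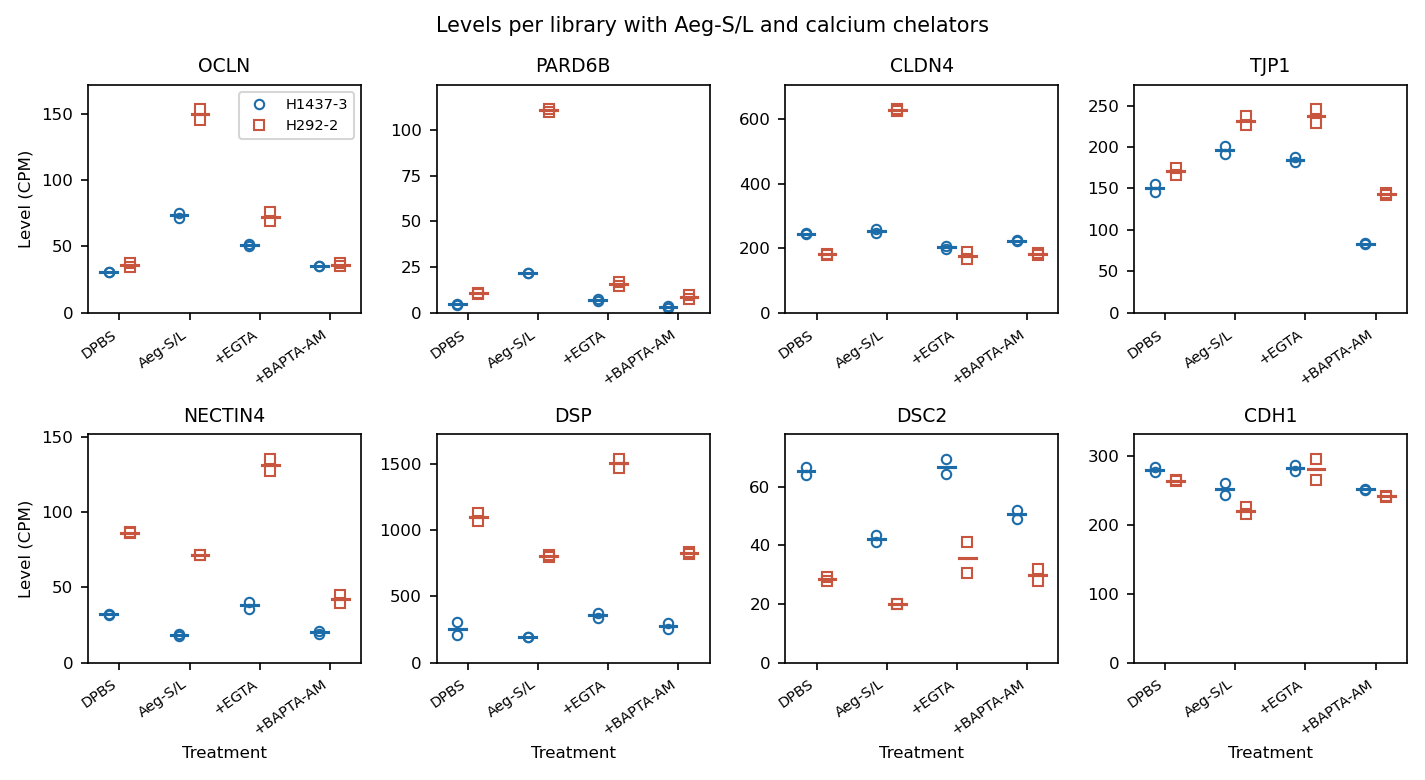
CPM per library on linear axes from 0 of 8 junction genes in H1437-3 (circles) and H292-2 (squares) under DPBS, Aeg-S/L, Aeg-S/L+EGTA and Aeg-S/L+BAPTA-AM; horizontal lines are group means of 2 libraries. OCLN in H292-2 goes from 146 and 154 CPM with Aeg-S/L to 68.9 and 75.7 CPM with EGTA and 35.1 and 37.3 CPM with BAPTA-AM, and DSP in H292-2 is highest with EGTA.

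With BAPTA-AM more members were lower than higher. Against Aeg-S/L, 8 members were higher and 16 lower in H292-2, against 37.9% of all genes tested (17.6% higher and 20.3% lower), and 3 and 15 in H1437-3, against 27.7% of all genes tested (11.6% higher and 16.1% lower). Medians were -0.09 and -0.16 over the members and 0.02 and 0.01 over all genes. Of the tight junction members 1 was higher and 10 lower of 17 in H292-2, and 1 and 10 of 18 in H1437-3. OCLN measured 35.1 and 37.3 CPM in H292-2, beside 34.8 and 37.3 CPM in DPBS, a log2 difference from Aeg-S/L of -2.05 ± 0.07 (SE, edgeR adjusted p = 2.88e-14). The log2 difference of PARD6B from Aeg-S/L was -3.67 ± 0.11 (SE, edgeR adjusted p = 2.27e-15) in H292-2 and -2.83 ± 0.18 (SE, edgeR adjusted p = 2.53e-09) in H1437-3. The H1437-3 count of 18 became 11 without Aeg-S/L replicate 2. Marker lists of other cell types moved with the chelators. In H1437-3 the 5 leukocyte markers summed to 53.7 to 54.8 TPM with Aeg-S/L, 76.8 to 79.1 TPM with BAPTA-AM and 46.7 to 51.7 TPM with EGTA, and the 5 fibroblast markers to 42.2 to 46.5, 36.04 to 42.6 and 28.2 to 30.6 TPM. In H292-2 the leukocyte sums were 1.80 to 3.03, 2.15 to 3.61 and 4.43 to 4.79 TPM and the fibroblast sums 10.3 to 11.8, 14.8 to 15.7 and 13.8 to 19.7 TPM in that order. Their part in the results was not tested.

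TJP1 and AFDN went below control with BAPTA-AM. TJP1 measured 82.9 and 84.1 CPM with BAPTA-AM in H1437-3, against 191 and 201 CPM with Aeg-S/L and 146 and 155 CPM in DPBS (log2 -1.23 ± 0.06, SE, edgeR adjusted p = 1.29e-10 and -0.85 ± 0.06 (SE, edgeR adjusted p = 3.20e-08)). AFDN, the afadin that binds nectins to actin, measured 67.8 and 68.9 CPM, 112 and 114 CPM and 99.7 and 93.7 CPM in H292-2 in that order (log2 -0.73 ± 0.06, SE, edgeR adjusted p = 1.12e-08 and -0.50 ± 0.06 (SE, edgeR adjusted p = 2.52e-06)). Both genes had their lowest libraries in the BAPTA-AM group. NECTIN1 was also lower with BAPTA-AM than with Aeg-S/L, at -0.48 ± 0.06 in H1437-3 and -0.38 ± 0.06 in H292-2. CDH1 did not pass against Aeg-S/L in H1437-3 (-0.0029 ± 0.05 (SE, edgeR adjusted p = 0.980)) or H292-2 (0.13 ± 0.06 (SE, edgeR adjusted p = 0.0901)), with unadjusted 95% intervals of -0.12 to 0.11 and 0.01 to 0.25.

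Compared directly, more members were higher with EGTA than with BAPTA-AM. In H292-2 20 members were higher and 3 lower with EGTA, against 46.6% of all genes tested (24.7% higher and 21.9% lower), and in H1437-3 14 and 6, against 37.7% of all genes tested (21.1% higher and 16.7% lower), with member medians of 0.24 and 0.16 and all-gene medians of -0.02 and -0.02. NECTIN4 measured 127 and 136 CPM with EGTA and 44.7 and 39.3 CPM with BAPTA-AM in H292-2 (log2 1.65 ± 0.07, SE, edgeR adjusted p = 7.12e-13), and 35.7 and 40.6 and 21.1 and 18.96 CPM in H1437-3 (log2 0.93 ± 0.10, SE, edgeR adjusted p = 1.57e-06). AFDN was higher with EGTA by 1.14 ± 0.06 and 0.58 ± 0.11, TJP1 by 0.72 ± 0.06 and 1.15 ± 0.06, and OCLN by 0.997 ± 0.07 and 0.53 ± 0.07 in H292-2 and H1437-3. CLDN3 and CLDN7 were lower with EGTA in both lines, CLDN3 at -0.82 ± 0.27 and -0.67 ± 0.08; the CLDN3 call in H292-2 was lost without Aeg-S/L+BAPTA-AM replicate 2 (0.203) and Aeg-S/L+EGTA replicate 1 (0.0675), with the adjusted p in brackets.

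Measured against DPBS, Aeg-S/L with a chelator still left calls. With EGTA, 15 members were higher and 0 lower than DPBS in H292-2, against 34.5% of all genes tested (20.1% higher and 14.4% lower), and 4 and 1 in H1437-3, against 5.18% of all genes tested (4.19% higher and 0.988% lower). With BAPTA-AM the counts were 8 and 12 in H292-2, against 36.6% of all genes tested (17.6% higher and 19% lower), and 7 and 13 in H1437-3, against 34.1% of all genes tested (15% higher and 19.1% lower). These comparisons share their DPBS libraries with that of Aeg-S/L, so the following is a side by side description. Of the 18 members higher with Aeg-S/L in H292-2, 11 were higher than DPBS with EGTA and 7 with BAPTA-AM, where TJP1 and AFDN were lower. Of the 17 that were lower, 0 were lower with EGTA, 4 (CTNND1, NECTIN4, DSP and DSC2) were higher, and 9 were lower with BAPTA-AM, where 1 (EVPL) was higher. The DSC2 call did not hold without EGTA replicate 2 (log2 0.10) or DPBS replicate 1 or 2 (0.37 and 0.28). The CTNND1 call did not hold without DPBS replicate 1 or 2 (0.15 and 0.12), nor with DESeq2's size factors (edgeR adjusted p = 0.0523). With BAPTA-AM, the EVPL call was lost on leaving out any 1 of its 4 libraries (0.16 to 0.24). CDH2 was lost without BAPTA-AM replicate 2 or DPBS replicate 1 or 2. In H1437-3, of 13 higher members 3 were higher with EGTA (CLDN1, OCLN and TJP1) and 6 with BAPTA-AM, where 3 were lower (TJP1, PARD6B and CTNNB1). Of 8 lower members there, 0 were lower with EGTA, 1 (DSP) was higher, and 6 were lower with BAPTA-AM. The DSP call did not hold without EGTA replicate 1 or 2 (log2 0.55 and 0.39) or DPBS replicate 1 (0.23). DESeq2 did not call it either (adjusted p = 0.177). That of TJP1 with EGTA did not hold without EGTA replicate 2 (0.27) or DPBS replicate 1 (0.25). With BAPTA-AM, the OCLN, CDH1 and MARVELD2 calls were each lost on leaving out any 1 of the BAPTA-AM and DPBS libraries. PARD6B was lost without BAPTA-AM replicate 2 (-0.34) or DPBS replicate 2 (-0.51). The EGTA count in H292-2 rose from 15 to 23 without EGTA replicate 1, and the EGTA count of 5 in H1437-3 became 3 without EGTA replicate 1, EGTA replicate 2 or DPBS replicate 1.

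**Figure D5:**
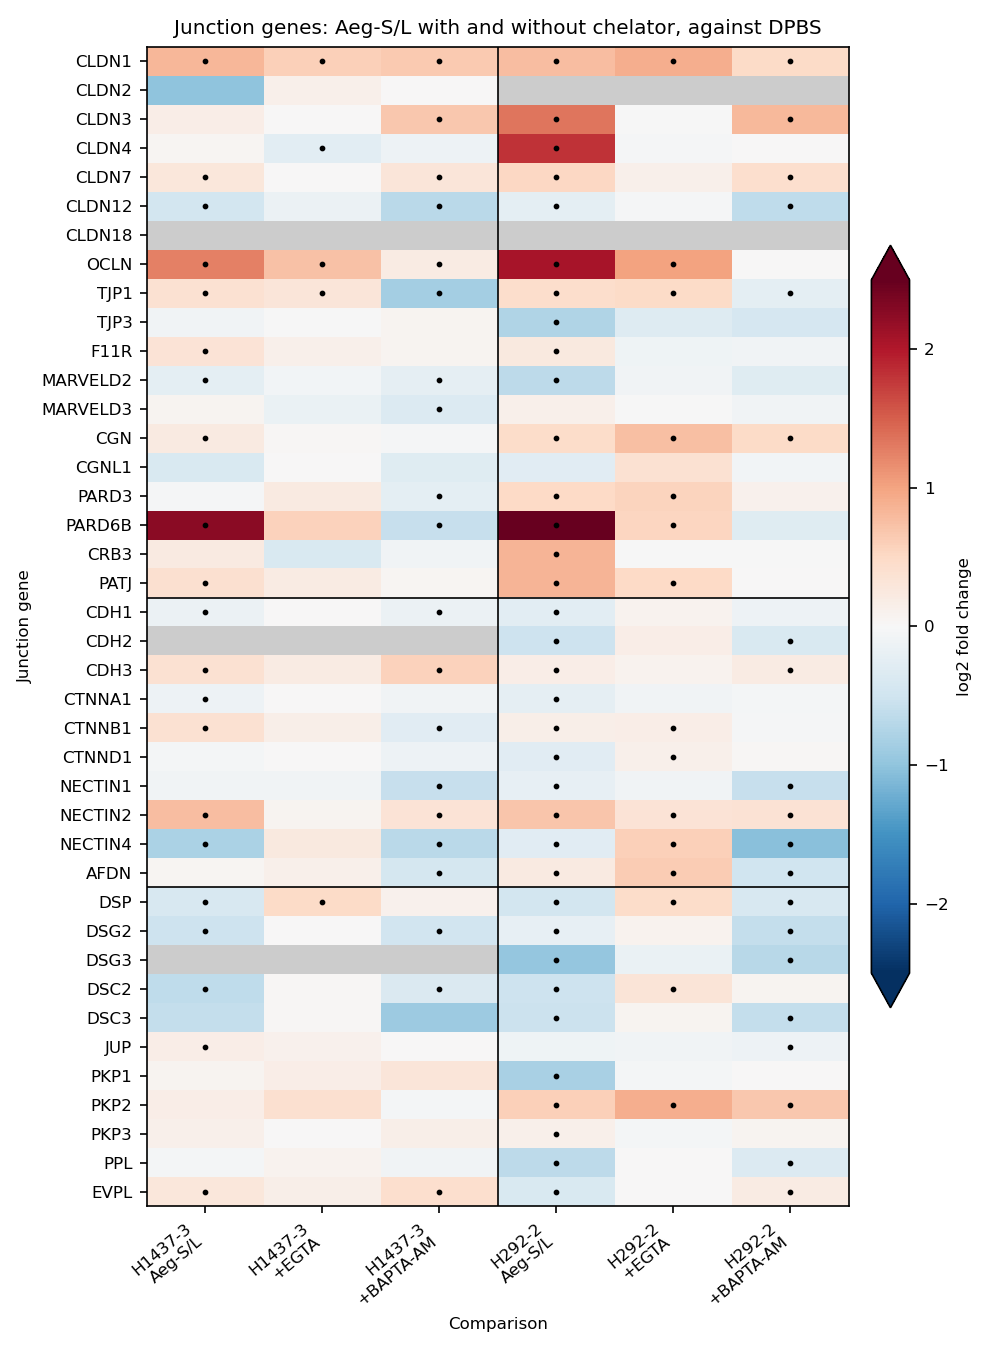
Log2 fold change against DPBS of each junction gene (rows, grouped as tight junction, adherens junction and desmosome) with Aeg-S/L alone, with EGTA and with BAPTA-AM, in H1437-3 (3 left columns) and H292-2 (3 right columns); a dot marks an edgeR adjusted p under 0.05, grey was not tested, and the colours end at 2.5 in either direction. The EGTA columns are paler than the Aeg-S/L columns for OCLN and PARD6B in both lines and for CLDN4 in H292-2, and TJP1 turns from red to blue with BAPTA-AM in both lines.

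Whether the lines responded differently was tested as an interaction. For Aeg-S/L against DPBS, 10 members had a higher and 6 a lower log2 fold change in H292-2 than in H1437-3 of 39, against 14.3% of all genes tested (7.48% higher and 6.82% lower). CLDN4 differed by 1.77 ± 0.09 (SE, edgeR adjusted p = 8.61e-13), CLDN3 by 1.19 ± 0.21 (SE, edgeR adjusted p = 0.000248), PARD6B by 1.13 ± 0.20 (SE, edgeR adjusted p = 0.000316) and OCLN by 0.82 ± 0.10 (SE, edgeR adjusted p = 4.89e-06) on the log2 scale. EVPL (-0.64 ± 0.10) and PPL (-0.60 ± 0.11) differed the other way. For EGTA against Aeg-S/L the differences numbered 7 higher and 4 lower, against 14.4% of all genes tested (8.27% higher and 6.15% lower), led by CLDN4 (-1.52 ± 0.09). For BAPTA-AM they numbered 4 and 9, against 11% of all genes tested (4.99% higher and 6.01% lower), and for wild-type extract in H292-1 against H1437-4 6 and 4, against 8.9% of all genes tested (4.2% higher and 4.7% lower). In that last comparison CLDN4 (1.06 ± 0.16 (SE, edgeR adjusted p = 0.000473)) and NECTIN4 (1.09 ± 0.18 (SE, edgeR adjusted p = 0.00119)) differed, and the count of 10 became 5 without H1437-4 DPBS replicate 1 or 2 or H292-1 WT ALT replicate 2, and 6 without H1437-4 WT ALT replicate 2, H292-1 DPBS replicate 1 or H292-1 WT ALT replicate 1. The lines were treated in separate experiments, so line and experiment cannot be told apart.

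Other junction genes, listed beside the members, moved in both directions too. Of the further claudins, tight junction, adherens and desmosome genes, 11 rose and 7 fell of 39 tested in H1437-3 with Aeg-S/L (median log2 fold change 0.08), beside 31.2% of all genes, and 10 rose and 7 fell of 37 in H292-2 (median -0.02), beside 43.2% of all genes. AMOTL2, an angiomotin-family scaffold, rose in all 6 comparisons, with log2 fold changes of 2.80, 2.69, 3.13, 3.15, 2.73 and 3.52 in H1437-1, H1437-4, H1437-2, H1437-3, H292-1 and H292-2. PVR, a nectin-like adhesion receptor, rose in the last 5 of these by 0.68, 0.80, 0.71, 0.95 and 0.79. AJUBA, a LIM protein of adherens junctions, rose in the 4 NCI-H1437 experiments by 0.97, 1.03, 1.67 and 1.39 and measured 0.15 and -0.10 in H292-1 and H292-2 without passing. With EGTA against Aeg-S/L, AMOTL2 was lower, at -2.99 ± 0.10 in H1437-3 and -2.13 ± 0.08 in H292-2.

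Regulators of epithelial genes were counted alongside, again beside 43.2% of all genes called in H292-2 and 31.2% in H1437-3. Among the E-cadherin repressors, 3 rose and 0 fell of 4 tested in H292-2 with Aeg-S/L, and 2 and 0 of 4 in H1437-3. SNAI1, the Snail repressor, measured 1.76 and 2.01 CPM in DPBS and 10.6 and 11.7 CPM with Aeg-S/L in H292-2 (log2 2.57 ± 0.23, SE, edgeR adjusted p = 2.32e-08), and 12.1 and 10.6 and 31.8 and 35.97 CPM in H1437-3 (log2 1.58 ± 0.12, SE, edgeR adjusted p = 4.25e-08). It was lower with BAPTA-AM than with Aeg-S/L, at -3.14 ± 0.24 and -1.48 ± 0.12 in H292-2 and H1437-3, and with EGTA, at -0.98 ± 0.21 and -1.32 ± 0.12. Its relative SNAI2 went up further with EGTA in H1437-3, at 0.178 and 0.454 CPM in DPBS, 0.966 and 0.774 CPM with Aeg-S/L and 6.16 and 3.90 CPM with EGTA (log2 2.52 ± 0.38, SE, edgeR adjusted p = 0.000108 against Aeg-S/L). SNAI2 was scarce in NCI-H1437, at 0.537 TPM in DPBS as the mean over experiments, beside 18.9 TPM in NCI-H292. ZEB2 and TWIST1 passed the count filter in none of the fits, and ZEB1, tested within H1437-2 alone among the 6 experiments, was not called there.

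Of 8 epithelial regulators, 5 rose and 2 fell in H292-2, and 3 rose and 3 fell in H1437-3, beside 43.2% and 31.2% of all genes. OVOL1, a zinc-finger factor of epithelial differentiation, rose in all 6 comparisons (1.38, 2.49, 2.77, 2.80, 2.25 and 3.18 in the order given above for AMOTL2), and GRHL3, a grainyhead factor, rose by 4.08 ± 0.17 in H292-2 and 1.15 ± 0.20 in H1437-3. ESRP1, an epithelial splicing regulator, fell in 5 comparisons, by 0.67 in H1437-3 and 0.73 in H292-2, and GRHL2 fell by 0.27 and 0.50. Of the 5 proteases known to cut cadherins, ADAM10 fell by 0.48 in H1437-3 and 0.23 in H292-2 with Aeg-S/L, and ADAM15 rose by 0.13 ± 0.05 and 0.35 ± 0.06. Of the gap junction genes, the connexin GJB2 rose by 0.62 ± 0.13 in H1437-3. Hemidesmosome and laminin genes gave 3 rises and 2 falls of 9 in H292-2, beside the same 43.2%, with LAMB3 up by 0.73 ± 0.05 and PLEC and DST down by 1.17 and 0.93.

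The members that carry these results lie on several chromosomes of hg19, the build of the count tables: OCLN (ENSG00000197822.6) at chr5:68788119-68853931, PARD6B (ENSG00000124171.4) at chr20:49348081-49373332, CLDN4 at chr7:73213872-73247014, NECTIN4 at chr1:161040785-161059389, CDH1 at chr16:68771128-68869451, DSP at chr6:7541808-7586950, and DSG2 and DSC2 close together at chr18:29078006-29128971 and chr18:28645940-28682378. The sources used here do not say whether counting used strand. Exons of other genes covered 36.6% of the exon bases of F11R, 18.1% of MARVELD3, 17.1% of JUP (with KRT17), 16.3% of CLDN12 and 12.3% of CLDN7, so reads from the partner cannot be told apart there. OCLN and PARD6B have annotated pseudogenes (OCLNP1 and PARD6BP1) with which reads could be shared, which leaves their counts uncertain to that extent.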

How the data were processed

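RNA was sequenced from NCI-H1437 and NCI-H292 cells, 51 libraries in 6 experiments. The deposited values are whole-number counts per gene, which the authors made from reads; HISAT2 2.2.1, SAMtools, featureCounts 2.0.2 and build hg19 are named in the submitters' processing notes. Gene IDs were matched to symbols through the reference gene table. Each experiment was fitted alone with edgeR 4.0.16 in R 4.3.3 (filterByExpr, TMM scaling, quasi-likelihood F test), and p-values were Benjamini-Hochberg adjusted over all genes tested, with a call at an adjusted p under 0.05. The SE of a fold change was taken from its F statistic. Differences between lines were interaction terms in joint fits, and resting cells were compared on DPBS counts summed per experiment. Alternatives were DESeq2 1.42.0, its size factors, no low-count filter, a replicate block and leaving out each library or experiment.

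The 40 members and the other lists were chosen with earlier results of these data known. All 40 may be named; of other lists, counts are given, with genes that passed and a few values of genes that did not. On simulated counts for EGTA against Aeg-S/L, the test recovered 56% and 74% of genes changed by 0.5 and 1 on the log2 scale in H1437-3 (16489 genes, 15 false of 145 calls) and 54% and 79% in H292-2 (15911 genes, 7 false of 140 calls). The simulation changed 100 genes by each amount, whereas the real comparison called 30.6% and 44.9% of all genes tested. Recovery in the real data can therefore differ, and this was not tested. False calls in H1437-3 were a larger share of calls than the threshold of 0.05. Replicates differed beyond sampling noise in all 30 pairs (lowest chi-square per degree of freedom 3.427), so none were counted as copies. Same-numbered libraries of ALT+Tra and DPBS in H1437-1 deviated together (correlations 0.4656, 0.1212 and 0.3737), a pairing seen in the data and not stated in the labels.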

Additional observations from a re-analysis of the deposited data

Results flagged for a closer look

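The log2 fold change of some members differed between the lines by edgeR's interaction test, at an adjusted p under 0.05. The value in brackets is the log2 fold change in NCI-H292 minus that in NCI-H1437. For Aeg-S/L against DPBS (H292-2 and H1437-3), 16 members differed: CLDN3 (1.19), CLDN4 (1.77), OCLN (0.82), TJP3 (-0.64), PARD3 (0.54), PARD6B (1.13), CRB3 (0.65), PATJ (0.48), CTNNB1 (-0.22), NECTIN4 (0.53), DSG2 (0.32), JUP (-0.27), PKP1 (-0.86), PKP2 (0.44), PPL (-0.60) and EVPL (-0.64). Of these differences, some were lost on leaving out 1 of the 8 libraries, with edgeR adjusted p in brackets: TJP3 on leaving out any 1 of 6 of them (0.0625 to 0.193), CTNNB1 on leaving out any 1 of 7 of them (0.0662 to 0.158), DSG2 on leaving out any 1 of 5 of them (0.0548 to 0.120), JUP on leaving out any 1 of 4 of them (0.0868 to 0.140), PKP1 on leaving out any 1 of 4 of them (0.0663 to 0.139), PKP2 on leaving out any 1 of 6 of them (0.0555 to 0.161) and PATJ without H292-2 Aeg-S/L replicate 2 (0.0529). Other settings also lost CTNNB1 without the low-count filter (0.0783) and CTNNB1 with size factors of DESeq2 (0.0695).

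For EGTA with Aeg-S/L against Aeg-S/L alone, 11 members differed: CLDN1 (0.36), CLDN3 (-1.19), CLDN4 (-1.52), OCLN (-0.54), CGN (0.49), PARD6B (-1.16), CTNNB1 (0.25), CTNND1 (0.35), NECTIN2 (0.35), PPL (0.52) and EVPL (0.52). Of these differences, some were lost on leaving out 1 of the 8 libraries, with edgeR adjusted p in brackets: CLDN1 on leaving out any 1 of 5 of them (0.0528 to 0.216), CTNNB1 on leaving out any 1 of 6 of them (0.0566 to 0.185) and NECTIN2 on leaving out any 1 of 7 of them (0.0555 to 0.203). Other settings also lost CTNNB1 with size factors of DESeq2 (0.0541), NECTIN2 without the low-count filter (0.0700) and NECTIN2 with size factors of DESeq2 (0.0539).

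For BAPTA-AM with Aeg-S/L against Aeg-S/L alone, 13 members differed: CLDN3 (-1.07), CLDN4 (-1.66), OCLN (-1.04), TJP1 (0.50), PARD6B (-0.88), CRB3 (-0.60), PATJ (-0.56), CTNNB1 (0.44), CTNND1 (0.34), NECTIN4 (-0.92), DSP (-0.51), DSG2 (-0.46) and EVPL (0.39). Of these differences, some were lost on leaving out 1 of the 8 libraries, with edgeR adjusted p in brackets: DSP on leaving out any 1 of 7 of them (0.0523 to 0.105), EVPL on leaving out any 1 of 4 of them (0.0536 to 0.0755), PARD6B without H1437-3 Aeg-S/L+BAPTA-AM replicate 1 (0.124) and CRB3 without H1437-3 Aeg-S/L replicate 2 (0.0620) and H292-2 Aeg-S/L replicate 1 (0.0728). Other settings also lost DSP by DESeq2 (0.0943).

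For wild-type extract against DPBS (H292-1 and H1437-4), 10 members differed: CLDN1 (-0.62), CLDN3 (0.87), CLDN4 (1.06), OCLN (0.65), MARVELD2 (-0.70), CGN (0.84), PATJ (0.69), NECTIN4 (1.09), DSC3 (-1.21) and PKP1 (-1.02). Of these differences, some were lost on leaving out 1 of the 8 libraries, with edgeR adjusted p in brackets: CLDN1 on leaving out any 1 of 7 of them (0.0524 to 0.106), CLDN3 on leaving out any 1 of 6 of them (0.0717 to 0.204), OCLN on leaving out any 1 of 7 of them (0.0641 to 0.154), MARVELD2 on leaving out any 1 of 5 of them (0.0666 to 0.0835), PKP1 on leaving out any 1 of 6 of them (0.0589 to 0.107) and DSC3 without H1437-4 DPBS replicate 2 (0.0717) and H1437-4 WT ALT replicate 1 (0.0649).

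Among DPBS levels over the 4 NCI-H1437 experiments, 1 of the 40 members had an experiment far from the others. PPL stood at 58.8 TPM in H1437-1 (35.6 TPM in DPBS replicate 1, 60.2 and 80.8 TPM in the others) and at 82.7 to 86.9 TPM in the other 3, a gap larger than Dixon's test allows at its usual level. Chance alone gives such a gap in about 1 in 20 groups.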

How the results depend on the processing

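Counts are of members called by edgeR at an adjusted p under 0.05. DESeq2 gave 5 in place of 3 for extract in H1437-1, and 2 in place of 0 for ALT+Tra against DPBS. Without the low-count filter the counts became 6 in place of 0 for ALT+Tra against DPBS, 1 in place of 0 for Aeg-S in H1437-2, 1 in place of 0 for Aeg-S/L+Tra against Aeg-S/L, 8 in place of 5 for EGTA against DPBS in H1437-3, and 2 in place of 0 for aegl KO against DPBS in H292-1. The cause was not tested. DESeq2's size factors moved no count by over 1.5 times in the 35 comparisons.

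Leaving out 1 library gave these ranges. In H1437-1 they were 1 to 4 for extract and 0 to 2 for ALT+Tra against extract. In H1437-2 they were 0 to 7 for Aeg-S and 0 to 0 for Aeg-S/L. In H1437-3 they were 3 to 7 for EGTA against DPBS, and against Aeg-S/L 11 to 13 for EGTA and 11 to 15 for BAPTA-AM. In H1437-4 they were 0 to 1 for aegs KO and 0 to 1 for aegl KO against DPBS. In H292-1 they were 6 to 13 for wild-type extract, and 9 to 20 for aegs KO and 7 to 12 for aegl KO against it. EGTA against DPBS in H292-2 ranged over 12 to 23, and the line difference for wild-type extract over 5 to 10. With 2 libraries a group, the lone one left is assumed to vary like the other groups.

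By the check on same-number correlations, replicate numbers paired ALT+Tra and DPBS in H1437-1, where the replicate block left 0 members called. The other correlations there ran from -0.1449 to 0.0390, and 8 of 18 library comparisons in H1437-1 were best with their own number. Correlations in the other experiments ran from -0.0992 to 0.256, the highest for DPBS and aegs KO ALT in H292-1. With 2 libraries a group, a pair of groups gives only 1 correlation, so the check cannot show that pairing was absent. With a replicate block the count for Aeg-S/L in H1437-2 was 3 in place of 5, and the other 33 counts moved by at most 1.5 times. No gene call reversed under any setting. Of 440 gene calls, DESeq2 kept 430, its size factors 434 and the fit without a filter 424, and leaving out 1 library or experiment kept 1598 of 2028 values and lost 430. The wide spread in H1437-1 and H1437-2 limits what those experiments can show.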
